A study of Mus musculus with 2 samples.

Results

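Arg1-expressing microglia were examined in the mouse retina after optic nerve injury. They were chosen from single-cell RNA counts as barcodes that carried microglial transcripts together with at least 2 UMIs of Arg1, a UMI being the tag that marks 1 captured RNA molecule. Barcodes entered with 1500 or more UMIs from 300 or more genes, and with no more than 15% of UMIs from mitochondrial genes. The rule then asked for at least 3 of the 7 microglial genes P2ry12, Tmem119, Siglech, Gpr34, Sall1, Fcrls and Olfml3, and for at least 5 UMIs of the complement genes C1qa, C1qb and C1qc together. Cells with 2 UMIs or more of at least 3 of the macrophage genes Chil3, Gpnmb, Ms4a7, Retnla, Ccl8 and Mrc1 were left out, as were cells with more than 1 of the division genes Mki67, Top2a, Ube2c, Birc5 and Cdk1. Of 4269 barcodes in all, 141 met the rule, and all 141 came from the library labelled MSC-sEV.

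The series holds 2 libraries, each made from retinas pooled from 6 C57BL/6 mice aged 6 to 8 weeks and taken 2 weeks after optic nerve injury, which both groups received. One group was given PBS and the other MSC-sEV, a name that the labels do not spell out. Cells were enriched on magnetic beads against CD45, the surface marker of leukocytes. With 1 library per group and no replicate, no test was possible, intervals cover counting error only, and treatment, pool and library cannot be told apart.

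Microglia are the resident macrophages of the retina and brain and are recognised by genes such as P2ry12, a purine receptor, and Tmem119. Arg1 encodes arginase, the enzyme that splits arginine into ornithine and urea. Ornithine feeds the synthesis of polyamines and proline, and arginine used in this way is not available to nitric oxide synthase. In mouse macrophages Arg1 is a classical mark of alternative activation, which interleukin 4 and interleukin 13 evoke through the transcription factor STAT6. The gene of Arg1 lies on chromosome 10, 24915221 to 24927484, on the minus strand (mm10, GENCODE M21).

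Arg1-positive cells made up 141 of the 217 microglia of the MSC-sEV library, which is 65.0% (58.2 to 71.3, exact Clopper-Pearson interval at 95%). A further 30 microglia (13.8%) had 1 Arg1 UMI and 46 (21.2%) had 0. In the PBS library 112 cells met the same rule for microglia and 0 of them had an Arg1 UMI, which allows a share of up to 3.24% of cells with a UMI at this depth (median 9378 UMIs), and sets no limit on cells that express the gene. All 1676 PBS barcodes together held 3 Arg1 UMIs. Arg1 chose these cells, so its level is given as a description. The 141 members held 5833 Arg1 UMIs, a level of 2411 CPM (2349 to 2473), where CPM is the gene's UMIs per 1000000 UMIs of the whole class. Per cell the Arg1 count ran from 2 through a median of 15 to 476. The middle of the distribution lay between 7 and 44 UMIs, and the 10 highest cells held 43.4% of all Arg1 UMIs. By count, 24 members had 2 to 4 UMIs, 55 had 5 to 19 and 62 had 20 or more, of which 16 had at least 100.

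Free RNA in the droplets was gauged in 407 rods of the same library, photoreceptors that should lack Arg1. They held 37 Arg1 UMIs (29.2 CPM), and 8.60% of them had a UMI at a median depth of 2686 UMIs. At that level a member of median depth (15240 UMIs) would carry 0.446 Arg1 UMIs on average and the deepest member (60054 UMIs) 1.76. The Arg1 level was more than 3 times that of the rods in 137 members and not in the other 4. Just inside the rule were 7 members with exactly 2 UMIs, with a median cell level of 165 CPM, and just outside it the 30 cells with 1 UMI, with a median cell level of 162 CPM. Members were deeper than the cells without Arg1, with medians of 15240 and 5842.5 UMIs, and a rule on counts favours deep cells. The comparisons with cells without Arg1 and with PBS microglia were therefore repeated within cells of 3000 to 12000 UMIs, called matched depth here. That range held 46 members and 23 cells without Arg1, at medians of 6683.5 and 5527 UMIs, and 62 PBS microglia. The comparisons with macrophages and Plac8-positive cells were not repeated in this way.

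**Figure D1:**
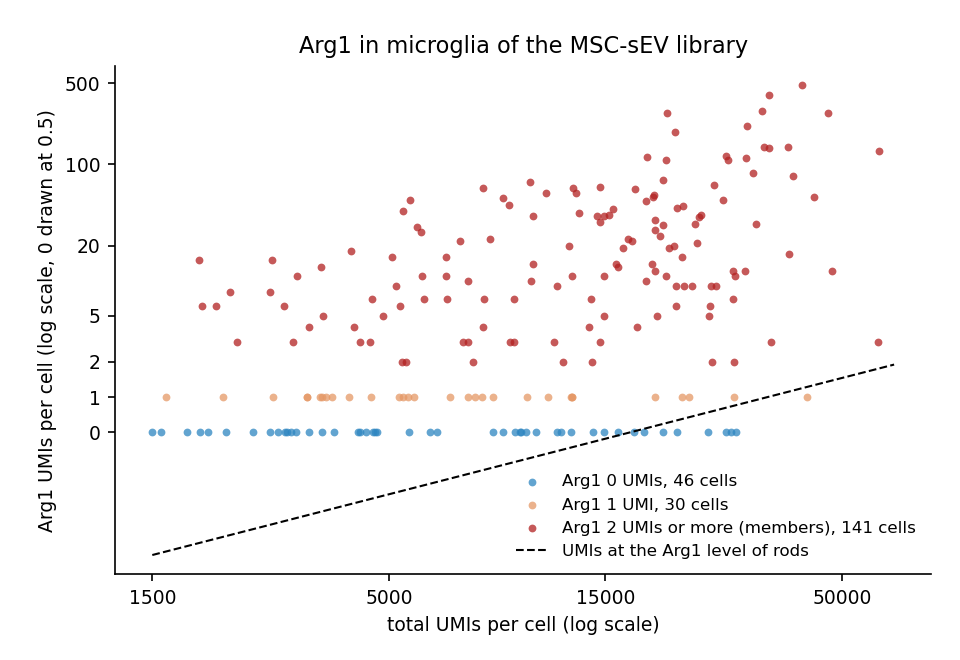
Arg1 UMIs per cell (vertical, log scale, with 0 drawn at 0.5) against total UMIs per cell (horizontal, log scale) for the 217 microglia of the MSC-sEV library, 1 point per cell. The dashed line is the mean count expected from the Arg1 level of rods, 29.2 CPM, above which single cells can lie. It stays below 2 UMIs up to the depth of the deepest member, and cells with 0 Arg1 UMIs reach up to 29134 total UMIs.

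The labelled cell type was checked against its markers. Among the members 120 had at least 4 of the 7 microglial genes, 98 had at least 5 and 48 had all 7. P2ry12 was seen in 85.1% of members, Siglech in 85.1%, Tmem119 in 83.7%, Olfml3 in 91.5% and C1qa in all of them. These genes were part of the rule. Members had lower levels of most of them than cells without Arg1: P2ry12 stood at 288 against 488 CPM, Tmem119 at 241 against 488, Siglech at 389 against 734 and Sall1 at 209 against 305, while Fcrls stood at 189 against 149. In 60 macrophages of the same library, defined by C1q and at least 3 of the 6 macrophage genes, P2ry12 was at 40.3 CPM and Tmem119 at 40.3. That definition sets no limit on microglial genes, and P2ry12 was seen in 38.3% of the macrophages. Of the members 106 had none of the macrophage genes at 2 UMIs, 20 had 1 and 15 had 2.

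Markers of blood monocytes were uneven across the members. At least 2 of Ly6c2, Ccr2 and Plac8 were detected in 14 of the 141 members and in 2 of the 46 cells without Arg1. The 14 cells had a median of 25587.5 UMIs and an Arg1 level of 1347 CPM, against 14609 UMIs and 2611 CPM in the other 127. Over the 7 markers of classical monocytes the members summed to 389 CPM, from 0 through a median of 0 to 11982 per cell, and the cells without Arg1 to 111 CPM, with Hp and Ifitm6 at 0. Of the 7 border macrophage markers 5 were seen in the members, and Lyve1 and F13a1 were at 0. The 7 together summed to 77.7 CPM in members and 14.2 CPM in cells without Arg1, where 3 were seen. Among them Mrc1, a gene of the rule, was at 49.6 and 4.73 CPM. Rod transcripts were sparse, at a median of 0.084% of UMIs in the members and 0.117% in cells without Arg1, with 5 and 4 cells above 2%. The barcodes of the libraries did not overlap (0 shared). Scrublet called 0 of 1775 barcodes as doublets and so has not worked as a caller here, and the part of doublets was not tested.

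Members were placed beside macrophages and another class of cells by 2 gene lists outside the rule, summed per cell. The latter class, called Plac8-positive cells here, had at least 2 UMIs of at least 2 of Ly6c2, Ccr2 and Plac8, fewer than 5 C1q UMIs and fewer than 3 microglial genes. It held 50 cells, all with Plac8, and was a mixture: Ly6c2 was seen in 72% and Ccr2 in 80% of them, and Siglech in 22%, Ccr9 in 22% and Ly6d in 16%, which are known from plasmacytoid dendritic cells. The homeostatic list, 25 genes of unchallenged microglia such as Cx3cr1 and Csf1r, had a median of 20606 CPM in members, 28316 in cells without Arg1, 6349 in macrophages and 4315 in Plac8-positive cells. It was above the macrophage median in 137 of the 141 members and above the highest macrophage in 100, but above the highest Plac8-positive cell in 58. The list of monocyte and infiltrating macrophage genes, among them Lyz2, Fn1 and Lgals3, had a median of 2853 CPM per member, 1436 in cells without Arg1, 15111 in macrophages and 16708 in Plac8-positive cells. It was below the lowest macrophage in 83 members and above the macrophage median in 2. The members were thus not uniform, and some lay within the macrophage range on each list.

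**Figure D2:**
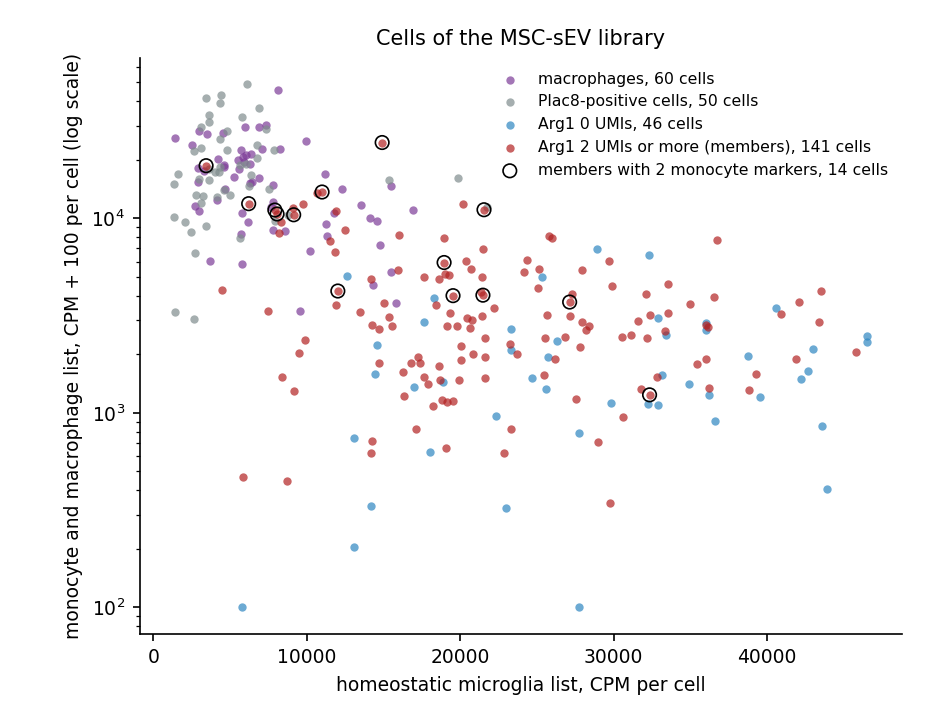
Summed CPM of the monocyte and infiltrating macrophage list plus 100 (vertical, log scale) against summed CPM of the homeostatic microglia list (horizontal) per cell in the MSC-sEV library, 1 point per cell, coloured by class. Circles mark the 14 members with at least 2 of Ly6c2, Ccr2 and Plac8, and several of these lie among the macrophages and Plac8-positive cells at the left.

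The first comparison set the 141 members against the 46 microglia of the same library without Arg1. Ccl24, Fn1, Igf1, Tgm2, Postn and Col6a3 were higher in the members, and the homeostatic genes as a list were lower. Of 9136 genes with at least 20 counts in both classes together, 6.63% were 2-fold or more higher and 4.26% were 2-fold or more lower, and the median log2 ratio of all genes was -0.04. By any amount 4276 were higher and 4860 lower. Of the higher and lower genes whose intervals lay farthest from 1, 14 and 15 are described here.

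Ccl24, the eotaxin-2 chemokine that recruits eosinophils through the receptor Ccr3, held 2957 UMIs in the members and 37 in the cells without Arg1. Its gene lies on chromosome 5, 135569937 to 135573049, on the minus strand. Per member it ran from 0 through a median of 4 to 319 UMIs, and per cell without Arg1 from 0 through 0 to 21. It was detected in 81.6% of members (74.2 to 87.6) and 23.9% of cells without Arg1 (12.6 to 38.8), against 6.39% of rods. The Ccl24 level was 13.95-fold higher (10.1 to 19.9), and 7.01-fold higher (4.75 to 10.8) in cells of 3000 to 12000 UMIs. Of the 37 UMIs in cells without Arg1, 83.8% came from 5 cells. The classes overlapped, since 115 of the 141 members had Ccl24 and so did 11 of the 46 cells without Arg1. After thinning every cell to 1500 UMIs, Ccl24 was seen in 46.8% of members and 4.35% of cells without Arg1.

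Other secreted and matrix genes went the same way. Fn1, which encodes fibronectin (chromosome 1, 71585520 to 71653200), had 1026 and 18 UMIs and was 9.95-fold higher (6.27 to 16.9), or 8.21-fold (3.86 to 20.9) at matched depth. Postn, which encodes the matrix protein periostin (chromosome 3, 54361109 to 54391037), had 281 and 5 UMIs and was seen in 50.4% of members and 6.52% of cells without Arg1. Its ratio was 9.81 (4.16 to 30.5), and 4.59 (1.65 to 17.7) at matched depth. Col6a3, a collagen VI chain (chromosome 1, 90765923 to 90843971), had 359 and 9 UMIs, a ratio of 6.97 (3.63 to 15.4), and of 2.17 with an interval that includes 1 (0.879 to 6.44) at matched depth. Tgfbi, a secreted matrix protein, was at 126 against 18.9 CPM, and at 94.8 CPM in members without monocyte markers.

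Postn and Col6a3 had their highest level in the members among the classes compared. Postn stood at 116 CPM in members, 11.8 in cells without Arg1, 6.60 in macrophages, 0 in Plac8-positive cells and 0 in PBS microglia. Col6a3 stood at 148, 21.3, 14.7, 0 and 0 CPM in the same order. Among members with at least 2 monocyte markers Postn was at 23.45 CPM and Col6a3 at 7.82 CPM, against 134 and 175 CPM in the other members. Of the 71 members with Postn and the 60 with Col6a3, 45 had both, which is 63.4% of the former and 75% of the latter.

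Igf1, the insulin-like growth factor (chromosome 10, 87858265 to 87937042), had 828 UMIs in members and 17 in cells without Arg1. It was found in 73.8% and 21.7% of the cells and was 8.50-fold higher (5.28 to 14.7), or 4.53-fold (2.55 to 8.76) at matched depth. Igf1 reached 506 CPM in macrophages and 16.9 in Plac8-positive cells, against 342 CPM in members. Tgm2, a transglutaminase that crosslinks proteins and a common mark of alternative activation, had 537 and 14 UMIs, a ratio of 6.70 (3.96 to 12.3) and of 6.47 (2.64 to 20.6) at matched depth. Its 5 highest members held 45.1% of the UMIs. Lgals3, the galectin of phagocytic macrophages, had 1215 and 33 UMIs, a ratio of 6.43 (4.55 to 9.38) and of 2.42 (1.59 to 3.8) at matched depth. Lgals3 was at 1102 CPM in the members with monocyte markers and at 389 in the others, and at 2679 CPM in macrophages. Lgals1, a second galectin, was at 189 against 35.5 CPM, with a ratio of 3.22 (0.955 to 16.9) at matched depth.

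Several of the higher genes stood highest in the members with monocyte markers. Plbd1, a lysosomal phospholipase-like protein, was at 521 CPM in those 14 cells and 31.9 CPM in the other 127, against 9.47 CPM in cells without Arg1. Wfdc17 was at 276 CPM in the 14 cells and 44.2 CPM in the others, and AA467197 at 242 and 31.4 CPM. In Plac8-positive cells Wfdc17 was at 815 and AA467197 at 776 CPM. The AA467197 ratio turned to -1.21 on the log2 scale when cells with 1 Arg1 UMI joined the reference. At matched depth the ratio of Wfdc17 was 1.77 (0.468 to 9.89) and that of Plbd1 3.22 (0.955 to 16.9), both with intervals that include 1. The part of monocytes in these values was not tested. Acp5, the tartrate-resistant acid phosphatase, had 100 UMIs in 24.8% of members against 1 UMI in the cells without Arg1, and 278 CPM in macrophages. At matched depth Acp5 had 4 and 0 UMIs, with an interval that includes 1. Hip1, an endocytic adaptor, had 161 UMIs in 38.3% of members and 0 UMIs in the cells without Arg1, at least 9.37-fold higher against a floor of 3 counts. Rods had Hip1 at 44.2 CPM, against 66.5 CPM in members.

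**Figure D3:**
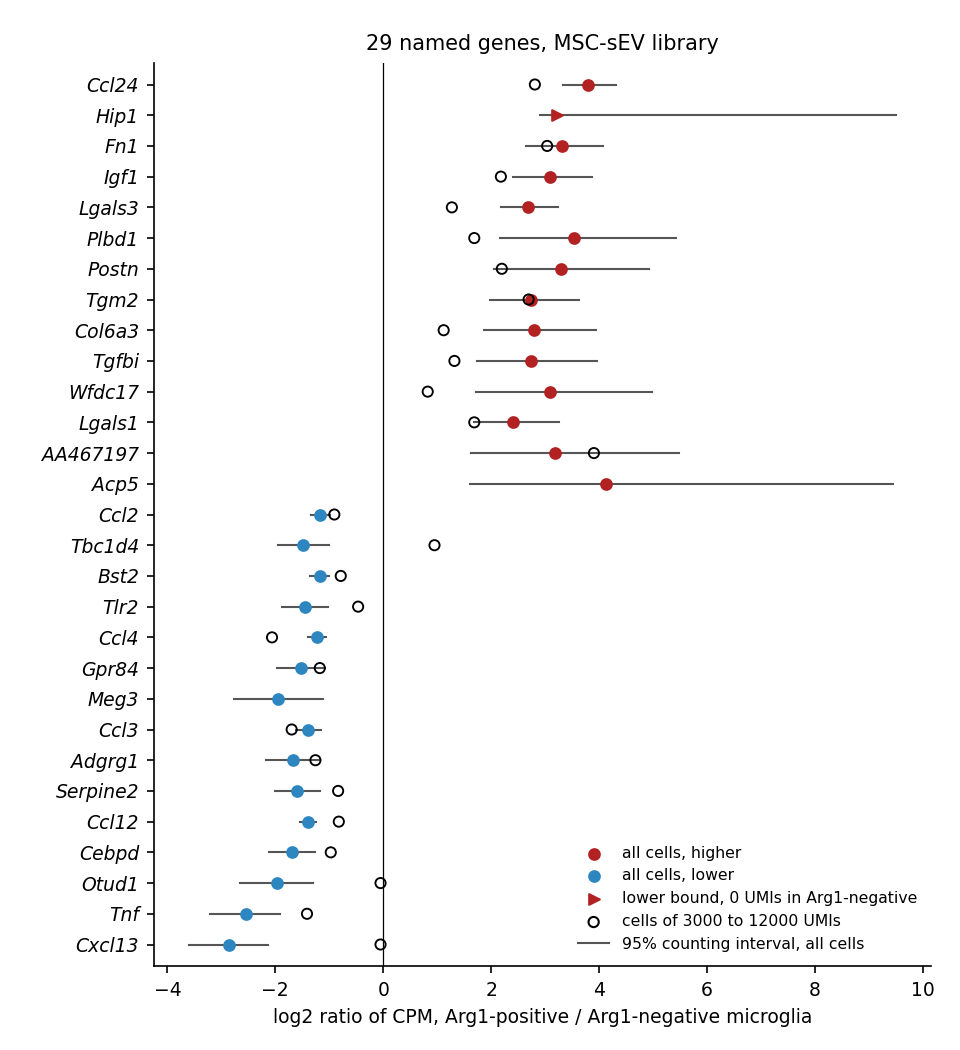
Log2 ratio of CPM between Arg1-positive and Arg1-negative microglia of the MSC-sEV library for 14 higher and 15 lower named genes, filled points for all cells with their 95% counting intervals (lines end at 9.5 where the interval goes further), open circles for cells of 3000 to 12000 UMIs where both classes had a UMI and a triangle for Hip1, a lower bound. Fn1 and Tgm2 keep nearly the same ratio at matched depth, Lgals3 and Col6a3 come closer to 0, and Tbc1d4 crosses it.

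The lower genes were led by inflammatory mediators. Cxcl13, a B cell chemokine, was 7.25-fold lower in members (4.38 to 12.1), but with 30 and 38 UMIs in 4.26% and 13.04% of cells. At matched depth Cxcl13 had 12 and 6 UMIs and a ratio of 0.966 (0.336 to 3.14). Tnf, the tumour necrosis factor, was 5.86-fold lower (3.74 to 9.19), with 42 and 43 UMIs in 19.1% and 21.7% of cells, and the 5 highest cells held 79.1% of the UMIs of the cells without Arg1. Ccl12 was 2.64-fold lower (2.38 to 2.93), Ccl3 2.62-fold (2.24 to 3.06), Ccl4 2.34-fold (2.08 to 2.62) and Ccl2 2.24-fold (1.99 to 2.53). All of these attract monocytes or other leukocytes. In cells without Arg1, 5 of the 46 cells held 57.1% of the Ccl12, 63.8% of the Ccl2, 66.8% of the Ccl4 and 67.4% of the Ccl3 UMIs. At matched depth Ccl4 had a ratio of 0.240 (0.193 to 0.296), Ccl3 of 0.309 (0.225 to 0.421), Ccl2 of 0.534 (0.423 to 0.674) and Ccl12 of 0.565 (0.449 to 0.713). There Ccl4 was seen in 39.1% of members and 56.5% of cells without Arg1, and Ccl3 in 28.3% and 47.8%. Ccl2 was seen in a higher share of members, 65.2% against 56.5%, and Ccl12 in 78.3% of both. Tlr2, a receptor for bacterial lipids, was 2.75-fold lower (2.04 to 3.67), Gpr84, a receptor for fatty acids, 2.88-fold (2.12 to 3.89), and Cebpd, a transcription factor of acute inflammation, 3.24-fold (2.40 to 4.33). Bst2, an interferon-induced antiviral protein, was 2.26-fold lower (2.00 to 2.56). Adgrg1, an adhesion receptor of homeostatic microglia, was 3.19-fold lower (2.24 to 4.49), and Serpine2, a protease inhibitor, 3.02-fold (2.26 to 4.02). At matched depth the intervals of Tnf, Tlr2, Gpr84 and Cebpd included 1. For Tbc1d4, Otud1 and Meg3 the direction turned under at least 1 other setting.

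Short stretches of promoter sequence were read for the named genes, to show where a STAT6 site stands near a start. The motif TTCNNNNGAA, which equals its own reverse complement, was searched from 250 bases before to 50 bases after the start in RefSeq promoters of GRCm38.p6. It was chosen after the values were seen. It occurred in 6.95% of 32851 promoters and in 2 of the 22 named genes with an entry, Lgals3 with 2 matches and Acp5 with 1, and in 0 of the 12 lower genes with an entry. The percentage counts promoters and the others count genes, some with several promoters, and 1 of the 3 Acp5 promoters matched. Among the named genes without an entry, which were not searched, were Ccl24, Fn1, Tgm2, Lgals1, Cebpd, Ccl4 and Ccl2. A match of letters is a description and does not show that a factor binds. Both windows are given below 5′ to 3′ on the strand of the gene, with the matches in capitals; that of Lgals3 is chr14:47373610-47373909 on the plus strand and that of Acp5 is chr9:22130549-22130848 on the minus strand.
Lgals3: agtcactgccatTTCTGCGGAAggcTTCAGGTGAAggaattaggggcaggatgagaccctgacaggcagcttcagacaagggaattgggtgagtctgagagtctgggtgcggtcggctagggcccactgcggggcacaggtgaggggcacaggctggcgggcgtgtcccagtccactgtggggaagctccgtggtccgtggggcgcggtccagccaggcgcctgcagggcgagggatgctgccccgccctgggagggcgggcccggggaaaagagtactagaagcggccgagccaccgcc
Acp5: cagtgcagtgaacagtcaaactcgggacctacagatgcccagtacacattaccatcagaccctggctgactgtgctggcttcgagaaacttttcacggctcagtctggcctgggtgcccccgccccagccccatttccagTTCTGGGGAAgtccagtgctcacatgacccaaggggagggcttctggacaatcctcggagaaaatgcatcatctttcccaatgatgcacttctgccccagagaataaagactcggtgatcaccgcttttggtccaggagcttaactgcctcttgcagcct

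Gene lists were compared by the number of their genes outside the rule that were higher or lower, beside 4276 higher and 4860 lower among all genes. The median of all genes at matched depth is not given, so list medians there lack that background. In the alternative activation list 16 of 23 measured genes were higher and 7 lower in members, with 10 and 1 past 2-fold and a median log2 ratio of 0.89 (-0.12 to 2.32, interval of the ranked genes). The median was 1.198 at matched depth. Beside Ccl24, Fn1 and Tgm2 the list holds Mgl2 and Ear2, lectin and ribonuclease genes of macrophages, with 85 and 104 UMIs against 1 each. Both were seen in few members, Mgl2 in 7.80% and Ear2 in 9.93%. At matched depth Mgl2 had 6 UMIs against 1 and Ear2 had 2 against 0, with intervals that include 1. Ptgs1, a cyclooxygenase, stood lower, at 489 against 698 CPM, and had a ratio of 1.03 at matched depth. The median was 0.17 when cells with 1 Arg1 UMI joined the reference.

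The arginine and polyamine list was near the level of all genes, with a median of 0.07 (12 of 21 genes higher, 2 past 2-fold). Sat1, which acetylates polyamines, was at 1161 against 925 CPM, and Oaz1, the antizyme that restrains polyamine synthesis, at 685 against 710 CPM. Ass1, which rebuilds arginine from citrulline, had 85 UMIs against 1, and Slc7a2, an arginine transporter, had 58 against 1, in 7.80% of members. At matched depth Ass1 had 11 UMIs against 1 and Slc7a2 had 2 against 0, with intervals that include 1. Slc7a2 was at 415 CPM in macrophages. In the list of receptors and regulators of Arg1, 17 of 28 genes were higher and the median was 0.34. Il4ra, the receptor chain for interleukin 4 and 13, was 1.56-fold higher (1.08 to 2.32). At matched depth its ratio was 1.53 (0.783 to 3.22), with an interval that includes 1. Socs1, a feedback inhibitor of cytokine signalling, was 2.67-fold higher (1.66 to 4.57), or 4.35-fold (1.73 to 14.04) at matched depth. Cebpb, a factor of the Arg1 enhancer, was at 284 against 308 CPM, within its counting interval.

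Of the 25 homeostatic genes outside the rule, 22 were lower and 3 higher in members, 4 of them 2-fold or more lower, with a median of -0.35 (-0.61 to -0.23). The median was -0.51 at matched depth and between -0.57 and -0.24 over all settings tried. Cst3, a cysteine protease inhibitor abundant in microglia, was at 8121 against 11070 CPM. Cx3cr1, the fractalkine receptor, was at 1439 against 2201 CPM, and Csf1r, the receptor for the survival factor of microglia, at 1833 against 2343 CPM. P2ry13 was at 61.2 against 163 CPM. Ltc4s, which makes a leukotriene, was not lower, at 416 against 282 CPM. Summed over the list the level was 21841 CPM in members and 29730 CPM in cells without Arg1.

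The MHC class II list was higher over all cells and not at matched depth. Its median was 1.02 (0.45 to 1.65, 10 of 12 genes higher), 0.49 without the cells with monocyte markers and -0.18 in cells of 3000 to 12000 UMIs. H2-Aa, which presents peptide to helper T cells, was at 1858 against 644 CPM over all cells, at 4276 CPM in the 14 members with monocyte markers and at 1402 CPM in the other members. In the cells without Arg1, 5 cells held 91.2% of the H2-Aa UMIs. At matched depth the H2-Aa ratio was 1.12 (0.87 to 1.46). The monocyte and infiltrating macrophage list behaved alike in part, with a median of 1.36, 0.58 without the cells with monocyte markers and 0.38 after thinning. Lyz2, its most abundant gene, had a ratio of 2.18 over all cells and 0.99 (0.82 to 1.19) at matched depth, while Fn1 and Lgals3, given above, were higher at matched depth as well.

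In the list of matrix genes and proteases 17 of 26 genes were higher, 9 of them past 2-fold, with a median of 0.46 (-0.02 to 1.73) and of 0.74 at matched depth. Inflammatory cytokines and their feedback genes were lower in 12 of 17 cases, with a median of -0.57, and -0.05 at matched depth. The chemokine list had a median of -1.12 over all cells, with 13 of 16 genes lower, and one of 0.40 at matched depth, where the ratios of Ccl2, Ccl3, Ccl4 and Ccl12 given above were still below 1. The interferon list was lower in 28 of 33 genes, with a median of -0.27, and -0.04 at matched depth. For MHC class I presentation 14 of 17 genes were lower, with a median of -0.20 that became 0.06 at matched depth. The border macrophage list had a median of 0.90 with 4 of 5 measured genes higher, while its summed level was 228 against 263 CPM. Lists of disease-associated microglia, lipid and lysosome, complement, growth factors, cell division and immediate-early genes had medians between -0.19 and 0.17. Within them single genes stood out: C3, the central complement component (chromosome 17, 57203970 to 57228136), was 3.26-fold higher in members (2.56 to 4.23) and 2.55-fold (1.81 to 3.69) at matched depth, and Apoe, the lipid carrier, was 1.29-fold higher over all cells but at a ratio of 0.54 (0.50 to 0.58) at matched depth. Nuclear genes of oxidative phosphorylation were higher in 28 of 30 cases by a small amount, with a median of 0.20.

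**Figure D4:**
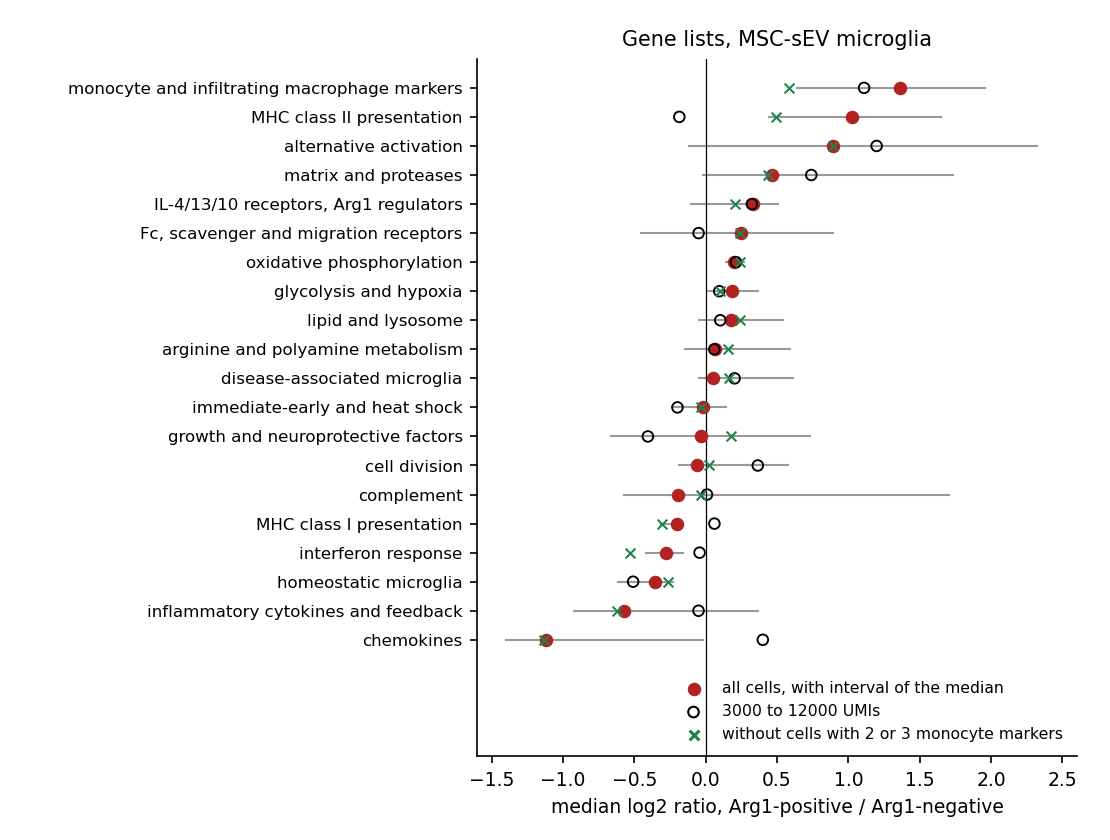
Median log2 ratio between Arg1-positive and Arg1-negative microglia of the MSC-sEV library for 20 gene lists, with the interval of the ranked genes as a line, open circles for cells of 3000 to 12000 UMIs and crosses without cells with at least 2 of Ly6c2, Ccr2 and Plac8. The border macrophage list had no median at matched depth and is not drawn. The alternative activation list stays to the right and the homeostatic list to the left of 0 in all 3 versions. The medians of MHC class II and chemokines change side at matched depth. Fewer genes of these lists and of the alternative activation list met the minimum of 20 counts there.

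Levels were also followed over the number of Arg1 UMIs. Ccl24 was at 87.6 CPM in cells with 0 Arg1 UMIs, 413 with 1, 242 with 2 to 4, 908 with 5 to 19 and 1641 with 20 or more. Postn was at 11.8, 20.7, 50.9, 89.4 and 147 CPM over the same bins, and Fn1 at 42.6, 189, 54.1, 130 and 686 CPM. The homeostatic list was at 29730, 28610, 23835, 22498 and 20978 CPM. Median depth was 5842.5, 6244, 8630, 12632 and 19546.5 UMIs over these bins, and its part in these values was not tested. The members were therefore also binned by their Arg1 count after thinning to 1500 UMIs, where 31 had 0, 45 had 1 or 2 and 65 had 3 or more, at median depths of 21265, 13803 and 14609 UMIs. Over these bins Ccl24 was at 475, 1313 and 1631 CPM, Fn1 at 172, 280 and 668, Tgm2 at 62.2, 83.6 and 405, Postn at 38.5, 98.8 and 175, and Col6a3 at 38.5, 79.0 and 259. The homeostatic list did not follow, at 22082, 22526 and 21276 CPM.

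**Figure D5:**
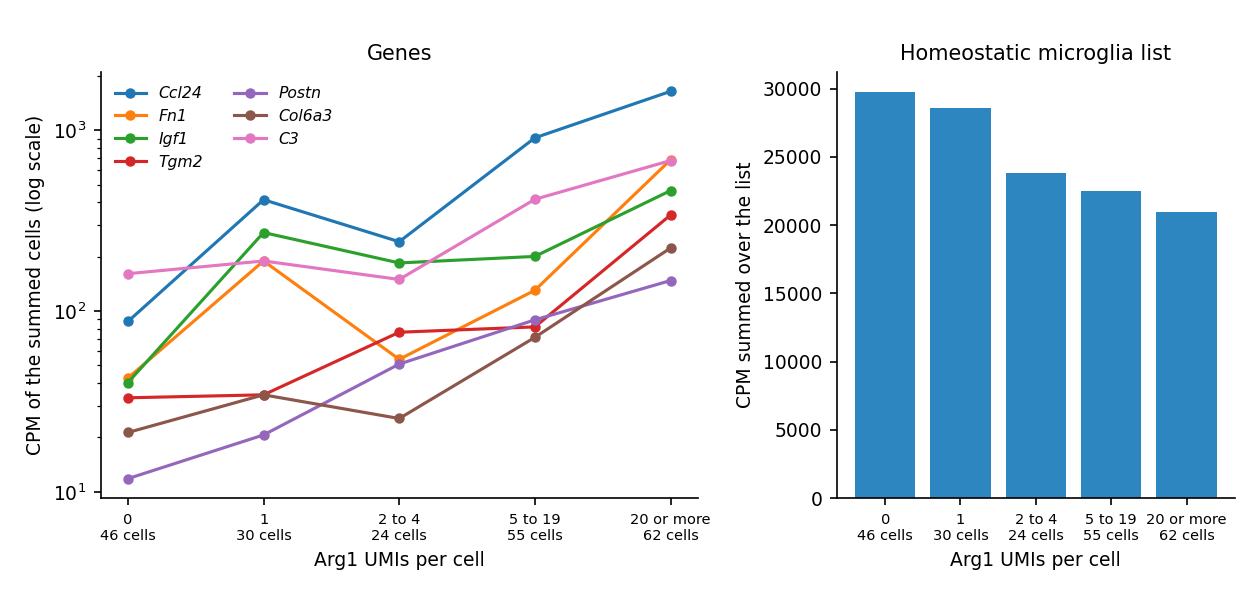
CPM of 7 genes (left, log scale) and of the homeostatic microglia list (right, bars from 0) in microglia of the MSC-sEV library summed by their Arg1 UMIs, with the number of cells under each bin. Ccl24, Postn and C3 are highest in the cells with 20 or more Arg1 UMIs, and the homeostatic list is lowest there.

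Among 888 genes the ones whose thinned counts followed Arg1 most closely over the 141 members were Fcgr2b, the inhibitory Fc receptor, with a Spearman coefficient of 0.33, Ccl24 with 0.31, C1qa with 0.31 and C3 with 0.30. These are weak correlations in sparse counts over cells of 1 library, and Rpl35a, a ribosomal protein gene, reached 0.31 as well. Fcgr2b was 1.86-fold higher in members than in cells without Arg1 (1.66 to 2.08). The genes higher in members did not all occur in the same cells: 36 of the 141 members had all of Ccl24, Igf1, Fn1 and Tgm2 and 5 had none, against 1 and 20 of the 46 cells without Arg1.

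The second comparison set the members against the 112 microglia of the PBS library. Here 20.2% of 10865 genes were 2-fold or more higher and 23.9% were 2-fold or more lower. By any amount 5418 were higher and 5447 lower. Rod transcripts made up a median of 2.94% of the UMIs of PBS microglia, with 60 of the 112 cells above 2%. In the summed class the 10 rod markers stood at 67950 CPM, against 79426 CPM in PBS rods and 4678 CPM in members. PBS cells of up to 151738 UMIs entered that sum. Some values are therefore also given against the 52 cells at or below 2%. Without cells above 2% in either class, 921 genes were 2-fold or more higher and 976 lower. Fewer cells leave fewer genes with 20 counts, and the number measured there is not given, so these counts cannot be set beside the shares above. The higher genes were led by Ccl24, with 2957 UMIs against 2, and by Col6a3 and Postn, with 359 and 281 UMIs against 0, at least 113-fold and 88.3-fold higher against a floor of 3 counts. Xdh, xanthine dehydrogenase, had 285 UMIs against 0 (at least 89.6-fold) and C3 had 1271 against 8 (150-fold, 75.8 to 348). Over 6 other settings the lowest log2 ratio was 9.11 for Ccl24, 5.97 for C3, 4.16 for Postn, 3.67 for Col6a3 and 3.61 for Xdh. Those of Postn, Col6a3 and Xdh are against the floor. Among these settings was that without cells above 2% rod UMIs. The lower genes were led by Cartpt, a neuropeptide gene, and by the haemoglobin genes Hba-a1, Hbb-bs, Hba-a2 and Hbb-bt, of red blood cells, and Cartpt was seen in 25.9% of the PBS microglia. Without cells above 2% rod UMIs the log2 ratio was -0.25 for Hba-a1, -0.45 for Hbb-bs, -0.16 for Hba-a2 and -0.97 for Hbb-bt, and -3.97 for Cartpt.

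Against PBS, 22 of 23 alternative activation genes were higher, with a median log2 ratio of 3.69, and 2.77 without cells above 2% rod UMIs. All 12 measured MHC class II genes were higher, with a median of 4.02, which was 2.30 at matched depth and 2.88 without cells above 2% rod UMIs. So were 31 of 33 interferon genes, with a median of 2.16, and 1.065 at matched depth. Complement genes were higher in 10 of 11 cases, with a median of 2.20, and 0.97 without cells above 2% rod UMIs. The monocyte and infiltrating macrophage list had a median of 3.73, and 2.08 in cells of 3000 to 12000 UMIs. The homeostatic list had a median of 0.30 over all cells, which became -0.98 without cells above 2% rod UMIs. Summed, the homeostatic list was at 21841 CPM in members and at 49498 CPM in the 52 PBS microglia with few rod transcripts. Cx3cr1 stood at 2587 CPM in those 52 PBS cells. Oxidative phosphorylation genes were lower in 29 of 30 cases over all cells (median -0.78) and had a median of 0.37 without cells above 2% rod UMIs.

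The third comparison placed the members beside the 60 macrophages and 50 Plac8-positive cells of the same library. Both classes were defined in part by genes of the rule, so these differences are a description. Against macrophages 10.3% of 9663 genes were 2-fold or more higher and 5.62% lower. By any amount 5464 were higher and 4199 lower. Arg1 itself was at 4915 CPM in macrophages and at 2444 CPM in Plac8-positive cells, of which 52% had a UMI. Higher in members than in macrophages were Postn (17.6-fold, 9.14 to 38.9), Sall3, a zinc finger factor (17.8-fold, 7.47 to 55.6), Sparc, a matrix glycoprotein (10.3-fold, 8.67 to 12.2), Col6a3 (10.1-fold, 6.45 to 16.8) and Cd81, a tetraspanin (7.52-fold, 6.67 to 8.51). Lower were Mmp12, the macrophage elastase (177-fold, 105 to 324), Atp6v0d2, a proton pump subunit (52.4-fold), Pf4, platelet factor 4 (50.1-fold), and F7, coagulation factor VII (34.7-fold), while Ctsk, cathepsin K, had 0 UMIs against 59, at least 34.9-fold lower. The homeostatic list was higher in 24 of 25 genes (median 1.89) and the monocyte and infiltrating macrophage list lower in 25 of 27 (median -1.87). The alternative activation list was lower in 21 of 24 genes, with a median of -1.17: Ccl24 was at 2075 and Fn1 at 1652 CPM in macrophages, against 1222 and 424 CPM in members. The lipid and lysosome list had a median of -0.42 and MHC class II one of -0.47.

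Against Plac8-positive cells 15.4% of 9393 genes were 2-fold or more higher and 9.91% lower. By any amount 4784 were higher and 4609 lower. Sparc was 191-fold higher (74.4 to 700), Cd81 50.8-fold (33.5 to 81.2) and Rnase4, a secreted ribonuclease, 42.6-fold (21.6 to 99.0), and Col6a3 and Postn were at least 35.0-fold and 27.4-fold higher. Ly6d, Cd8b1, Klk1, Fcrla and Ccr9 led the lower genes, each seen in at most 22% of these cells, so that they mark a part of the class. The homeostatic list had a median of 2.69 with 24 of 25 genes higher, the monocyte and infiltrating macrophage list one of -2.91 with all 28 genes lower, MHC class II one of -1.40 and alternative activation one of -0.98.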

How the data were processed

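Gene by cell UMI counts were deposited for 1 PBS and 1 MSC-sEV library, made from Chromium 3′ v3 reads with Cell Ranger 3.0.2 and the mm10 build, per the labels and the submitters' processing notes; the annotation is not given in the sources used here. Library totals were 8439740 and 16987131 UMIs. Of 31053 features 30934 were placed in GENCODE M21. Cells were chosen and their counts summed per class with Python 3.11.15, numpy 2.4.6, pandas 2.3.3 and scipy 1.17.1. Levels are CPM of these sums, and ratios carry exact conditional binomial intervals at 95%, levels exact Poisson ones, for counting error only. Ratios use genes with at least 20 counts in both classes together. The scripts were tested on simulated data. The members and gene lists were chosen with earlier results of these data known. Named genes were the 15 higher and 15 lower whose interval lay farthest from 1, from 50 counts upward and detected in 10% or more of the higher class; ribosomal, mitochondrial, sex-linked and predicted genes, genes of the rule and markers of unrelated cell types were left out. For lists the genes with the most counts and the extreme ratios were named, and for the other comparisons the 5 higher and 5 lower. Doublets were scored with Scrublet in scanpy 1.11.5 and kept; it called 0 of 1775 barcodes of the MSC-sEV library and 4 of 896 (0.446%) of the PBS library. Alternatives changed the Arg1 and marker minimums, mitochondrial limit, depth, weighting of cells and count minimum. Those without cells with monocyte markers or over 2% rod UMIs were added after seeing the data. A few genes that the naming rule chose are not reported here.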

Additional observations from a re-analysis of the deposited data

How the results depend on the processing

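No paired analysis was possible because each group is 1 library, and no library could be left out. Depth limits genes of few UMIs most, and intervals hold no spread between animals. Of 534 values of the named genes against Arg1-negative cells, 527 kept their direction. So did all 58 against PBS, all 30 against macrophages and all 30 against Plac8-positive cells. The genes were chosen for extreme ratios in these same cells and the settings share cells, so these counts are a description. Ratios against the floor of 3 counts that fell past 1 were left out, as were genes with 3 UMIs or fewer in each class. The cause of each change below was not tested. The Arg1 level of 2411 CPM was 2107 without macrophage markers, 2682 without the top 5% of Scrublet scores, 2511 without division genes, 2611 without cells with monocyte markers, 2163 from 1 Arg1 UMI and 2737 from 5, where 78.8% and 53.92% of microglia met the rule. Against Arg1-negative cells the log2 ratio was -1.21 for AA467197 when cells with 1 Arg1 UMI joined the reference, 0.01242 for Meg3 without division genes and 0.7059 for Otud1 after thinning. For Tbc1d4 it was 1.38 without high Scrublet scores, 2.55 without division genes, 0.95 at 3000 to 12000 UMIs and 1.60 without the top cell. At 3000 to 12000 UMIs list medians were -0.18 for MHC class II, 0.0615 for MHC class I, 0.40 for chemokines and -0.0425 for interferon. After thinning they were 0.21 for MHC class I, 0.12 for oxidative phosphorylation and 0.38 for the monocyte list. With each cell weighted the same they were -0.0475 for MHC class I and -0.0397 for interferon. Without macrophage markers MHC class I was -0.13, and with the wider reference interferon was -0.14. Without division genes disease-associated microglia genes were at -0.0664 and oxidative phosphorylation at 0.31, which was 0.27 at a 5% mitochondrial limit. Without cells over 2% rod UMIs disease-associated genes were at -0.0500. Without cells with monocyte markers interferon was -0.53 and the monocyte list 0.58, and the latter was 1.975 without high Scrublet scores. The 606 genes 2-fold or more higher became 392 with the wider reference, 277 at 3000 to 12000 UMIs, 166 after thinning, 1007 with equal weights and 119 at 100 counts or more. The 389 lower genes became 100 after thinning, 670 with equal weights, 32 at 100 counts or more and 1324 at 5 or more. Against PBS the homeostatic median was -0.57 at 3000 to 12000 UMIs, -0.37 with equal weights and -0.98 without cells over 2% rod UMIs, and that of oxidative phosphorylation -0.30, -0.34 and 0.37. At 3000 to 12000 UMIs interferon was 1.065 and the monocyte list 2.08, which was 2.69 without cells with monocyte markers. The 2191 higher and 2601 lower genes became 772 and 998 at 3000 to 12000 UMIs, and 921 and 976 without cells over 2% rod UMIs. Other cells, thinning and other count minimums change how many genes are measured. That number is not given for these settings, so their counts of genes are not shares. Against Plac8-positive cells alternative activation was -1.445 with equal weights.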

Other observations

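Hip1 and Ccl24, both higher in Arg1-positive microglia, are neighbours on the minus strand of chromosome 5 (mm10, GENCODE M21), Hip1 at 135406531 to 135545120 and Ccl24 at 135569937 to 135573049. The gap is 24816 bases and holds 1 gene, Ccl26. Among all 141 members 115 had Ccl24, and among the 54 with a Hip1 UMI 49 had it. Among all 60 macrophages of the same library 50 had Ccl24, and among the 39 with Hip1 35 had it. In Plac8-positive cells the counts were 26 of 50 and 12 of 24. Detection of the pair together was thus near the share of each whole class. The Hip1 level was 74.2 CPM in members with Ccl24 and 24.3 CPM in those without, the latter from 9 UMIs. In the same order it was 77.3 and 40.1 CPM in macrophages, the latter from 8 UMIs, and 99.6 and 97.8 CPM in Plac8-positive cells. In microglia with 1 Arg1 UMI it was 25.1 and 54.6 CPM, from 5 UMIs each, and in rods 41.1 and 44.4 CPM, the former from 3 UMIs. The part of depth was not tested.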
